A study of Mus musculus with 4 samples.

Results

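The nuclear receptor superfamily was followed through 46 mouse genes, and all probe sets that the platform annotation assigned to one of them were taken. In all, 71 probe sets matched 42 of these genes, of 12393 genes with a probe set of their own on the array. Nr1h2, Nr2e1, Nr2e3 and Nr3c2 were matched to no probe set and are not analysed here. Gene expression had been measured in mouse embryonic fibroblasts (MEFs), cells grown out of C57BL/6J embryos of embryonic day 10.0, with 2 arrays of Med1-/- p53-/- cells and 2 of Med1+/+ p53-/- cells. Every sample was therefore without p53, and the genotypes differed in Med1 alone as labelled. Embryos of both genotypes came from the same mating, of a Med1+/- p53-/- male with a Med1+/- p53+/- female, and the labels do not give the number of embryos behind each culture. Nor is it stated whether replicate arrays represent separate cultures. The p-values then measure only how far these samples spread, which may be technical, and the absence of Med1 and any other difference between the embryos cannot be told apart.

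Nuclear receptors are transcription factors with a zinc finger DNA-binding domain and a ligand-binding domain, and many are switched by a steroid, thyroid hormone, retinoid, vitamin D or lipid. A ligand turns the ligand-binding domain into a docking surface for coactivators that carry LXXLL motifs. MED1, also known as TRAP220, is the subunit of the Mediator complex that offers such motifs to many receptors, and it was isolated with the thyroid hormone and vitamin D receptors. The comparison thus gives the levels of the receptor messages in cells that have or lack one of the receptors' main contacts with RNA polymerase II.

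The Med1 message itself ran with the labels. Its brightest probe set had normalized signals of 47.1 and 53.0 on the Med1-/- arrays, against 631 and 591 on the Med1+/+ arrays. Med1 thus differed by -3.57 on the log2 scale (limma, adjusted p = 3.15e-05). The deposited signals were not on a common scale, with array medians of 36.1 and 51.4 for Med1-/- and 76.2 and 107 for Med1+/+ cells, so the arrays were quantile normalized and all signals below are on that scale. Values of different probe sets are not comparable as transcript levels, so only the change of each is described. Most genes differed: 75.3% of 8923 features passed the test (limma, adjusted p under 0.05), 39.1% as higher and 36.2% as lower in Med1-/- cells. Of the fibroblast and mesenchyme markers, 14 of 15 were on the array and 13 were tested, with 6 higher and 4 lower, and their summed signal was 92450 to 94658 in Med1-/- and 82231 to 83336 in Med1+/+ cells. The 6 were Col1a1 (log2 change 1.98), Thy1, Twist1, Col3a1, Col5a1 and Col1a2. The 4 that fell were Pdgfra (-2.95), Prrx1 (-2.89), S100a4 (-2.68) and Dcn (-1.99), falls that the sum does not show. Markers of other cells moved as well. Of 8 epithelial markers on the array, 5 were tested and 4 fell, led by Cdh1 and Krt18, while Krt19 rose, with a summed signal of 2356 to 2763 in Med1-/- and 5320 to 5519 in Med1+/+ cells, while Epcam lay at or under 3.08 on every array. Of 7 muscle markers 2 were tested and both rose (Des and Tnnt2; summed signal 815 to 843 in Med1-/- and 162 to 218 in Med1+/+ cells), and of 6 neural markers 2 were tested and both rose (Nes and Tubb3; 1195 to 1202 in Med1-/- and 346 to 408 in Med1+/+ cells). Of the endothelial, blood and liver cell markers only Kdr, Csf1r and Apoa2 were bright enough to be tested and none of these 3 passed; no fat cell marker was tested. The summed signals were 86.9 to 124 in Med1-/- and 74.8 to 79.2 in Med1+/+ cells for the endothelial list, and 159 to 171 in Med1-/- and 144 to 161 in Med1+/+ cells for the blood list. They were 77.8 to 89.5 in Med1-/- and 85.9 to 93.5 in Med1+/+ cells for the liver list, and 38.8 to 47.4 in Med1-/- and 112 to 167 in Med1+/+ cells for the fat cell list. Of the defining markers, Pecam1, Ptprc, Adipoq and Alb were at or under 16.8 on every array, while Esam reached 37.1 and Cd68 28.2, and Fabp4 was higher in Med1+/+ cells. Xist, transcribed from the inactive X chromosome, was at 364 and 201 in Med1-/- cells, against 6771 and 5839 in Med1+/+ cells, and the Y-linked genes Eif2s3y, Kdm5d and Uty were at or under 11.4 on all arrays. The part of these differences in the receptor results was not tested. In bulk RNA, fewer cells of a type and less RNA per cell cannot be told apart.

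Of the 42 receptor genes, 19 were expressed above the filter used for testing, a mean log2 signal at the 40th percentile of all probe sets (4.98, a normalized signal near 29.8). Their brightest probe sets were above that level in both genotypes for 14 genes. Vdr and Nr1d1 were above it in Med1-/- cells alone, and Nr2c2, Pparg and Rora in Med1+/+ cells alone. These 5 entered the test through the genotype in which they were brighter, so their difference is partly a consequence of the filter. The 23 genes below the filter were the retinoic acid receptor gene Rara, the thyroid hormone receptor gene Thrb, the lipid receptor genes Ppara, Ppard and Nr1h3, the bile acid receptor gene Nr1h4, the xenobiotic receptor genes Nr1i2 and Nr1i3, the sex steroid receptor genes Esr1, Esr2 and Pgr, and Rxrg, Rorb, Hnf4a, Hnf4g, Esrrb, Esrrg, Nr4a3, Nr5a1, Nr5a2, Nr6a1, Nr0b1 and Nr0b2. Their brightest probe sets ranged from 0.175 to 51.7 over all arrays. All 5 genes of the NR5, NR6 and NR0 classes, whose founding members Nr5a1 and Nr0b1 act in steroidogenic tissues, were in this set. Rara lay just outside the filter, with a mean log2 signal of 4.96 and signals of 42.2 and 48.2 in Med1-/- cells, against 12.2 and 29.2 in Med1+/+ cells, and Pparg (5.08) and Rora (5.10) lay just inside. A low signal can also belong to the probe set: Nr1d2 was at 356 or more on 1416958_at and at or under 11.7 on 1416959_at. The plot of genotype means shows the 19 genes above and the 23 below the filter, which is not a detection call. Rara and Nr0b2, below it on the mean of all arrays, were above its level in Med1-/- cells (mean log2 signal 5.55 and 5.09).

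**Figure D1:**
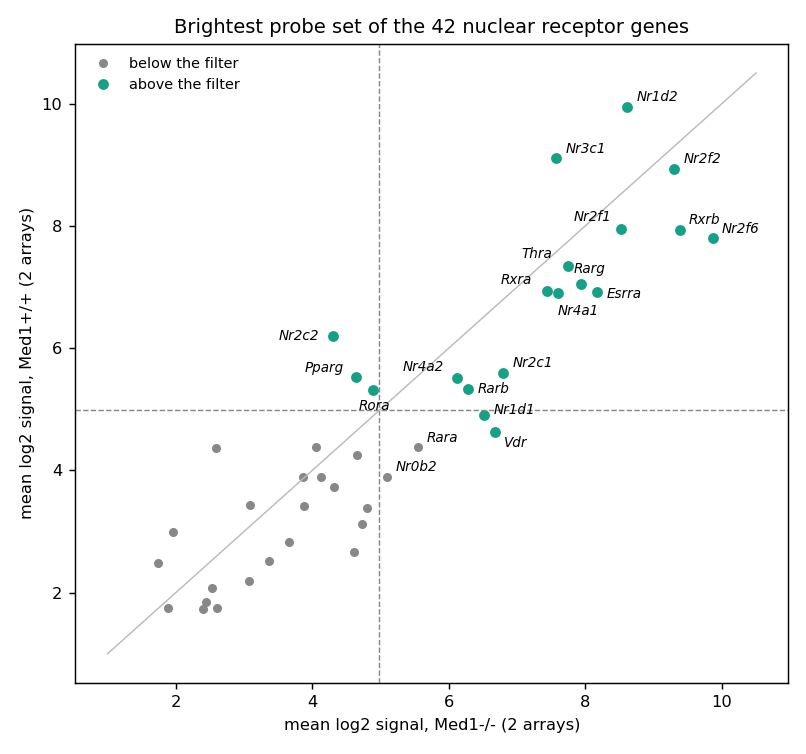
Mean log2 signal of the brightest probe set of each of 42 nuclear receptor genes in Med1-/- cells (x axis) and Med1+/+ cells (y axis), 2 arrays each. Dashed lines mark the filter level of 4.98 and the diagonal marks equal signal; the 19 genes above the filter on the mean of all arrays are in green and named, with Rara and Nr0b2 named among the others.

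Among the 19 tested receptor genes, 12 were higher and 3 lower in Med1-/- cells, and 4 did not pass. As shares these were 63.2% and 15.8%, against 39.1% and 36.2% of all features, and 78.9% of the receptor genes passed in either direction, against 75.3%. The share of receptors that passed was close to that of all genes. At least 2-fold changes among these were 6 higher and 3 lower, where 40.4% of all features had one in either direction. By probe set, 17 of the 27 above the filter were higher and 4 lower, against 36.3% and 35.3% of all 13576 (71.6% in either direction). Their median log2 change was 0.61, against 0.09 for all features. The signals of the genotypes did not overlap for 16 of the 19 (84.2%), and for 88.2% of all features. The median absolute difference between replicate arrays of the receptor genes was 0.25 in Med1-/- and 0.21 in Med1+/+ cells on the log2 scale, against 0.17 and 0.14 for all features. Their median absolute change was 0.95, against 0.84 for all features. The 3 falls belonged to Nr3c1, Nr1d2 and Nr2c2. Changes ran from -1.90 for Nr2c2 to 2.07 for Nr2f6.

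Smaller changes took their direction from how the arrays were scaled. Over all features, the log2 change had a median of 0.09 after quantile normalization, 0.30 with equal array medians, 0.11 with equal 75th percentiles, -0.76 in the values as deposited and -0.77 after scaling on the hybridisation controls, bacterial and phage sequences that the array carries for RNAs added to the hybridisation mix. The share of calls that were higher was 51.9%, 59.9%, 52.9%, 6.45% and 18.1% in the same order. In the last 2 scalings 8 receptor genes changed sign: Thra, Rarb, Rarg, Rxra, Nr2f1, Nr2f2, Nr4a1 and Nr4a2. The other 11 kept their direction under all 5 scalings. Subtracting the median of all features takes out any constant per array, so that 4 of the 5 scalings then give nearly the same values by construction. After that step 14 of the 19 lay above 0. Between quantile normalization and the other scalings the relative change still moved, over a range of 0.32 to 0.52 for Nr4a2, 0.26 to 0.42 for Rxra, 0.19 to 0.31 for Thra, 0.66 to 0.86 for Rarb and 1.98 to 1.99 for Nr2f6.

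**Figure D2:**
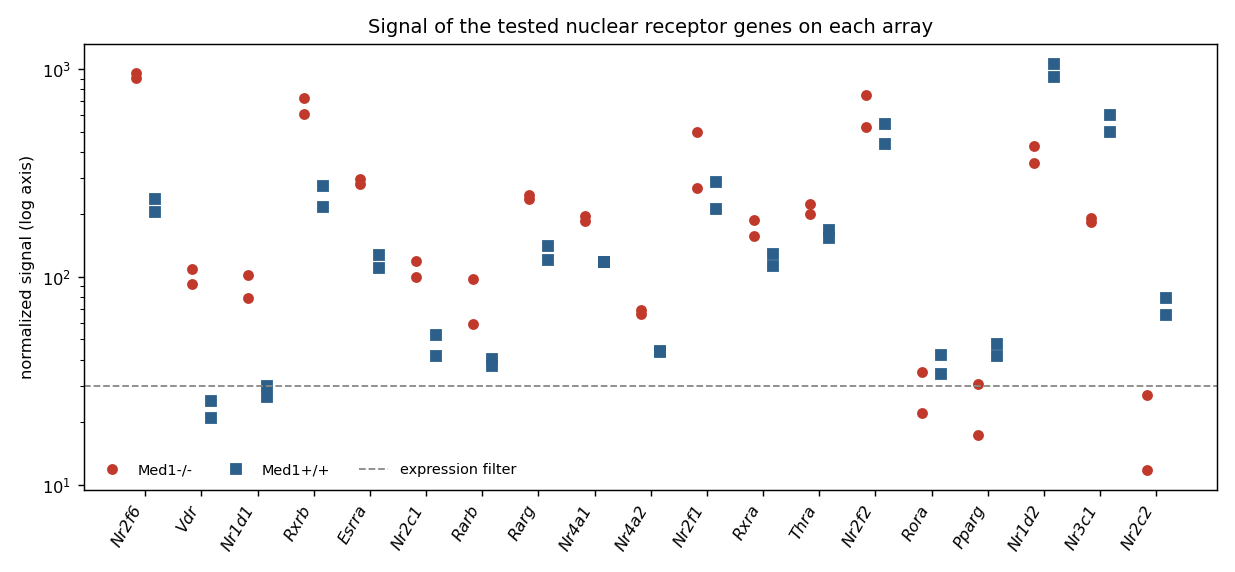
Normalized signal (log axis) of the 19 tested nuclear receptor genes on each array, ordered by log2 change; red circles are Med1-/- and blue squares Med1+/+ arrays, and the dashed line is the filter level. The circles lie above the squares from Nr2f6 to Nr4a2 and for Rxra and Thra. They lie below the squares for Pparg, Nr1d2, Nr3c1 and Nr2c2, and overlap them for Nr2f1, Nr2f2 and Rora.

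Promoter sequences are shown for Nr2f6 and Vdr, whose brightest probe sets rose most, and for the REV-ERB genes Nr1d1 and Nr1d2, which moved in opposite directions. Each is the RefSeq window of 250 bases before to 50 after the gene's start in GRCm38.p6, read on the gene's own strand, the minus strand in each case. Capitals mark the core hexamer of nuclear receptor sites, AGGTCA, and the GC box GGGCGG, each on either strand; GC boxes may overlap. The windows lie at chr8:71381903-71382202 (Nr2f6), chr15:97908247-97908546 (Vdr), chr11:98775328-98775627 (Nr1d1) and chr14:18239057-18239356 (Nr1d2).
Nr2f6: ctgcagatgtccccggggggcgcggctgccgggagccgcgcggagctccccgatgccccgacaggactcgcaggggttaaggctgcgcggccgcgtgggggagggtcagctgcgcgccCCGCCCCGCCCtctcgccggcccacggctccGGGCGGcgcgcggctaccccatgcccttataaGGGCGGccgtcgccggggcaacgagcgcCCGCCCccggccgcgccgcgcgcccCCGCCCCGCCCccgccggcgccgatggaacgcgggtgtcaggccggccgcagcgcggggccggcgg
Vdr: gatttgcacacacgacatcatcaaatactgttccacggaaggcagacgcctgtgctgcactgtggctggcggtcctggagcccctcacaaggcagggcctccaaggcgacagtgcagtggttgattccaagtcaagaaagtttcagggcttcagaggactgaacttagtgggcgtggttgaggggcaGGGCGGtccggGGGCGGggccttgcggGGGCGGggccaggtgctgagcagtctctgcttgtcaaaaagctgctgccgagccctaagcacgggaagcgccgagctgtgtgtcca
Nr1d1: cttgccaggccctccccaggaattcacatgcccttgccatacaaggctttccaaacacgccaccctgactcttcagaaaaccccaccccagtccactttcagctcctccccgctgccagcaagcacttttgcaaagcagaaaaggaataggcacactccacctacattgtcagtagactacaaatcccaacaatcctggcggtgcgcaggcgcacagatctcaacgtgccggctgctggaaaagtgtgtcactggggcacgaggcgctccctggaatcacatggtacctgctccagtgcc
Nr1d2: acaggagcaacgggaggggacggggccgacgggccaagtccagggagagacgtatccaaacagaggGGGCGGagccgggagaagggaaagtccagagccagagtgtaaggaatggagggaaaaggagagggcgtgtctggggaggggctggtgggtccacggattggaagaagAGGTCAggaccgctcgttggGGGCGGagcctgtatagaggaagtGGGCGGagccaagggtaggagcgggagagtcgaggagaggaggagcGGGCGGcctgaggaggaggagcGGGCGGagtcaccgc
The windows held 7 GC boxes and 0 hexamers for Nr2f6, 3 and 0 for Vdr, 0 and 0 for Nr1d1, and 5 and 1 for Nr1d2. The hexamer AGGTCA was in 16.3% of all 32851 RefSeq promoter windows and in 12 of 63 windows of the receptor genes (19.0%). The GC box was in 8 of 11 receptor genes that rose and have a window (72.7%), and in 74.8% of all tested genes that rose, 71.2% of those that fell and 71.6% of those that did not pass. The receptor genes that rose therefore held GC boxes about as often as other expressed genes. The steroid receptor hexamer AGAACA and the E-box CACGTG, searched on both strands, were in 19.0% and 7.15% of all windows. Neither was in a window of any tested receptor gene that has one (0 of 11 that rose, 0 of 2 that fell and 0 of 4 that did not pass).

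The steroid receptor class was represented by Nr3c1 alone, which encodes the glucocorticoid receptor, the cortisol and corticosterone sensor that fibroblasts are known to express. Nr3c1 had signals of 185 and 192 on the Med1-/- arrays, against 499.6 and 603 on the Med1+/+ arrays. Both Med1-/- arrays were low and the groups did not overlap. Nr3c1 fell by 1.53 on the log2 scale (SE 0.13, n = 2 arrays each; limma, Benjamini-Hochberg adjusted p = 9.45e-05). Another of its probe sets, 1421867_at, also fell, with 228 and 181 in Med1-/- cells, against 360 and 386 in Med1+/+ cells (log2 difference -0.87), and a dim one below the filter differed by -1.86. Of 13 glucocorticoid receptor target genes tested, 5 were higher, led by the clock gene Per1 (log2 change 1.53), and 5 were lower, led by the metallothionein gene Mt2 (-2.23), Klf9 (-1.73) and Mt1 (-1.64). Tsc22d3, a classical target, had a change of 0.14 and did not pass. These shares, 76.9% in either direction, were close to those of all features (39.1% higher, 36.2% lower, 75.3% in either direction).

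Of 13 genes on the array for receptors that pair with RXR and respond to vitamins, hormones or lipids, 5 were tested. Vdr, Rarb, Rarg and Thra rose, where 39.1% of all features did, and Pparg did not pass; the rises of Rarb, Rarg and Thra turned sign in the values as deposited and on the hybridisation controls. Vdr, the vitamin D receptor gene, had signals of 92.0 and 109.8 in Med1-/- cells, against 20.9 and 25.3 in Med1+/+ cells. The Med1+/+ signals were below the filter level. Vdr rose by 2.05 (SE 0.25; adjusted p = 0.000349, limma), or 4.14-fold, and its second probe set, 1418175_at, went the same way, with 114 and 97.0 against 19.0 and 17.2. In the values as deposited the change of Vdr was 1.08 and no longer passed (adjusted p = 0.0617, limma). Of 8 vitamin D receptor targets on the array 3 were tested: the cell cycle inhibitor gene Cdkn1a rose (2.58), and Igfbp3 (-1.76) and Tnfsf11 (-1.43), the gene of the osteoclast factor RANKL, fell. All 3 passed, where 75.3% of all features did. Tnfsf11 was below the filter level in Med1-/- cells (mean log2 signal 4.46) and entered the test through the Med1+/+ arrays.

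Among the retinoic acid receptor genes, Rarg had signals of 238 and 248 in Med1-/- cells, against 121 and 141 in Med1+/+ cells. Rarb, itself a textbook target of retinoic acid, had 59.6 and 97.5 in Med1-/- cells, against 37.1 and 40.2 in Med1+/+ cells. For both genes the Med1-/- arrays were the higher and the groups were apart, although for Rarb the 2 Med1-/- values were farther apart than the gap between the genotypes. Rarg rose by 0.89 (SE 0.14; adjusted p = 0.00116, limma) and Rarb by 0.95 (SE 0.29; adjusted p = 0.0208). The call of Rarb was lost without Med1-/- replicate 2 (adjusted p = 0.0846, limma), without Med1+/+ replicate 1 (0.0815), without Med1+/+ replicate 2 (0.0595) and with no filter (0.0539). Both genes changed sign, to between -0.0836 and -0.0652, in the values as deposited and on the hybridisation controls. Of 6 retinoic acid receptor targets tested, Tgm2 (3.37) and Rarres2 (2.61) rose, Crabp2 (-2.72) and Meis2 (-0.63) fell, and 2 did not pass. Rarres2 was below the filter level in Med1+/+ cells (mean log2 signal 3.68) and entered the test through the Med1-/- arrays. In the list of ligand synthesis, breakdown and binding genes, 8 of 18 on the array were tested. The retinoic acid synthesis gene Aldh1a2 rose (3.82), and 5 genes fell, led by the retinoic acid binding protein gene Crabp1 (-4.31), the synthesis gene Aldh1a1 (-4.13) and Crabp2. Aldh1a2 was below the filter level in Med1+/+ cells (mean log2 signal 4.23), and Aldh1a1 in Med1-/- cells (4.86). Each entered the test through the genotype in which it was brighter, so its difference is partly a consequence of the filter. The shares that passed were 66.7% of the targets and 75% of the ligand list, against 75.3% of all features (39.1% higher, 36.2% lower).

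Thra, the widely expressed thyroid hormone receptor gene, was at 201 and 226 in Med1-/- cells, against 154 and 169 in Med1+/+ cells. It rose by 0.40 (SE 0.14; adjusted p = 0.0351, limma), the smallest change among the receptor genes that passed. The call was lost without Med1-/- replicate 2 (adjusted p = 0.133, limma), without Med1+/+ replicate 1 (0.167) and without Med1+/+ replicate 2 (0.0747), with equal 75th percentiles (0.0957) and with no filter (0.0640), and the change was -0.57 in the values as deposited. A second Thra probe set, 1426997_at, differed by 0.64 and passed. Of 5 thyroid hormone receptor targets tested Bcl3 (0.67) and Me1 (0.45) rose and Klf9, a direct target, fell (-1.73). That was 60% passing in either direction, against 75.3% of all features. Thra and Nr1d1, which overlap in RefSeq, lie next to each other on chromosome 11, which also carries Med1, with 21 protein-coding genes between Med1 and Thra and 28 between Med1 and Rara.

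Pparg, the fat cell receptor gene, had signals of 17.4 and 30.6 in Med1-/- cells, against 47.5 and 41.5 in Med1+/+ cells. The groups did not overlap, but the difference of -0.89 did not pass (95% interval -1.76 to -0.03; adjusted p = 0.0577, limma). The difference was -1.28 without Med1-/- replicate 2 (adjusted p = 0.00873, limma) and -0.51 without Med1-/- replicate 1 (0.162), each with the lone Med1-/- array assumed to vary like the Med1+/+ ones. It passed in the values as deposited (-1.79), on the hybridisation controls (-1.82), with equal 75th percentiles (-0.98; adjusted p = 0.0280, limma) and without the intensity trend (0.0305). The fat cell marker Fabp4, also on the list of PPAR targets, was below the filter and is not among the targets tested. Fabp4 was at 1.82 and 13.7 in Med1-/- cells, against 56.0 and 89.5 in Med1+/+ cells. Its part in the Pparg values was not tested. Of 9 PPAR targets tested 5 rose, led by the lipoprotein lipase inhibitor gene Angptl4 (2.49), the lipid droplet gene Plin2 (1.65) and the kinase gene Pdk4 (1.15), and 2 fell, led by Fabp3 (-1.34). Of 9 liver X receptor targets, whose receptor genes were unmatched or below the filter, 5 rose, led by Pltp (0.95), and 4 fell, led by Scd1 (-1.44), the cholesterol exporter gene Abca1 (-1.40) and Mylip (-1.14). The shares that passed were 77.8% of the PPAR and 100% of the liver X receptor targets, against 75.3% of all features (39.1% higher, 36.2% lower).

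The retinoid X receptors are the shared partners of the vitamin D, retinoic acid, thyroid hormone, PPAR and liver X receptors above. Rxrb was at 610.0 and 725 in Med1-/- cells, against 273 and 217 in Med1+/+ cells, and Rxra at 157 and 189 in Med1-/- cells, against 129 and 113 in Med1+/+ cells. Both genes were higher on both Med1-/- arrays, and Rxrg was below the filter. Rxrb rose by 1.44 (SE 0.16; adjusted p = 0.000205, limma), or 2.72-fold, and Rxra by 0.51 (SE 0.16; adjusted p = 0.0261). Without Med1-/- replicate 2 or Med1+/+ replicate 2 the call of Rxra was lost (adjusted p = 0.106 and 0.140, limma), as it was with equal 75th percentiles (0.0764) and no filter (0.0555), and its second probe set, 1425762_a_at, differed by 0.45 and did not pass. In the values as deposited the changes were 0.59 for Rxrb, which no longer passed (adjusted p = 0.312, limma), and -0.49 for Rxra.

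**Figure D3:**
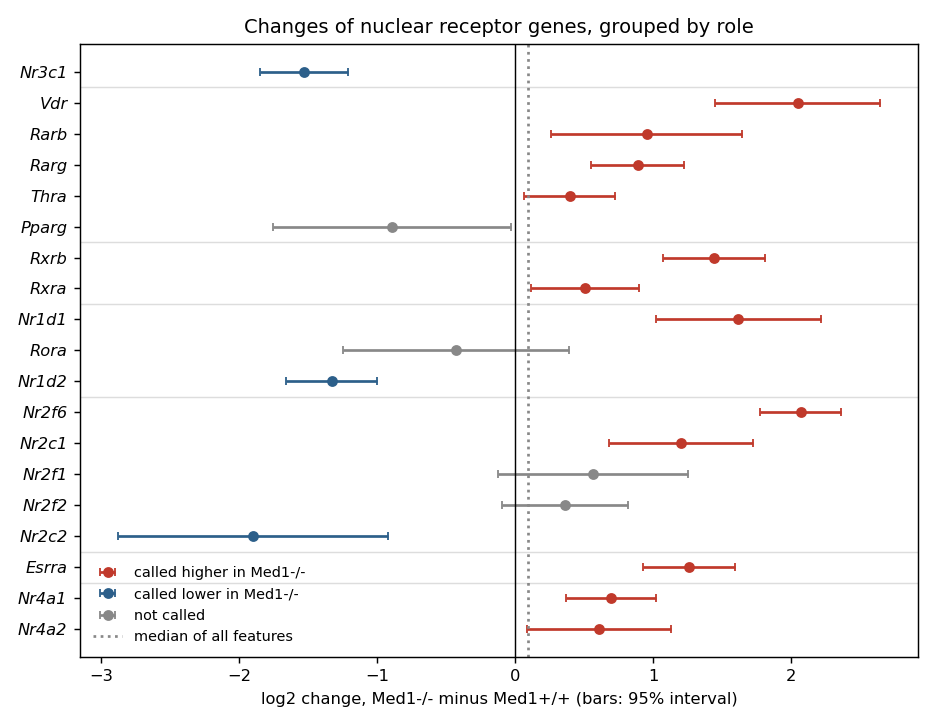
Log2 change, Med1-/- minus Med1+/+, with 95% intervals from limma for the 19 tested nuclear receptor genes. Grey lines separate, from the top, steroid receptors, partners of RXR, RXRs, REV-ERB and ROR, COUP-TF and testicular receptors, oestrogen-related receptors and NR4A receptors; the intervals of Rora, Nr2f1 and Nr2f2 include 0.

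The REV-ERB receptors are haem-binding repressors of the circadian clock, and the ROR receptors activate through the same DNA sites. Nr1d1, which encodes REV-ERB alpha, had signals of 102 and 79.2 in Med1-/- cells, against 29.9 and 26.5 in Med1+/+ cells. Nr1d2, which encodes REV-ERB beta, had 429 and 356 in Med1-/- cells, against 917 and 1057 in Med1+/+ cells. The pair thus moved apart: both Med1-/- arrays were high for Nr1d1 and low for Nr1d2, with no overlap. Nr1d1 was below the filter level in Med1+/+ cells (mean log2 signal 4.90) and entered the test through the Med1-/- arrays, so its difference is partly a consequence of the filter. Nr1d1 rose by 1.62 (SE 0.25; adjusted p = 0.00101, limma) and Nr1d2 fell by 1.33 (SE 0.14; adjusted p = 0.000171). In the values as deposited the change of Nr1d1 was 0.62 and did not pass (adjusted p = 0.314, limma). On the hybridisation controls it was 0.61 and did not pass either (adjusted p = 0.0556, limma). Nr1d2 stayed called lower in both. Rora was at 34.9 and 22.1 in Med1-/- cells, against 34.3 and 42.2 in Med1+/+ cells, and these overlapped (log2 difference -0.43, 95% interval -1.25 to 0.39; adjusted p = 0.288, limma), but Rora passed as lower in the values as deposited (-1.38) and on the hybridisation controls (-1.39). The tested Rora probe set was below the filter level in Med1-/- cells (mean log2 signal 4.88). Its other probe sets, below the filter, differed in opposite directions, 1420583_a_at by -2.19 and 1424035_at by 0.87. Of 9 REV-ERB and ROR targets tested, 5 rose, led by Nfil3 (1.41) and Cry1 (0.93), and the clock activator genes Clock (-1.68) and Arntl (-0.91) fell. In either direction 77.8% passed, against 75.3% of all features. Arntl is a textbook target of REV-ERB repression.

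The COUP-TF class and the testicular receptors are orphans that mostly repress. Nr2f6 had signals of 958 and 905 in Med1-/- cells, against 237 and 205 in Med1+/+ cells. Nr2f6 rose by 2.07 (SE 0.12; adjusted p = 3.71e-05, limma) or 4.2-fold, and its second probe set, 1460647_a_at, rose by 1.65. Over brightest probe sets this was just above Vdr (2.05), whose second probe set rose by 2.43, so that with probe sets averaged Vdr (2.24) lay above Nr2f6 (1.86). Nr2f2, which encodes COUP-TFII, a regulator of mesenchyme, was at 749.9 and 528 in Med1-/- cells, against 543 and 439 in Med1+/+ cells, and Nr2f1, which encodes COUP-TFI, at 269 and 498 against 213 and 285. Both overlapped between the genotypes. The differences were 0.37 for Nr2f2 (95% interval -0.09 to 0.82; adjusted p = 0.122, limma) and 0.57 for Nr2f1 (-0.13 to 1.26; adjusted p = 0.115). With equal array medians Nr2f2 passed (0.60; adjusted p = 0.0221, limma). With 1 Med1-/- array left, assumed to vary like the Med1+/+ ones, the values depended on which: Nr2f2 was at 0.62 without replicate 2 (adjusted p = 0.0118, limma) and 0.11 without replicate 1 (0.577). Nr2f1 was at 1.01 without replicate 1 (adjusted p = 0.00215, limma) and 0.12 without replicate 2 (0.597). The 3 Nr2f2 probe sets above the filter did not move alike, since 1416158_at was higher (1.0; adjusted p = 0.00295, limma over 13576 probe sets) and 1416160_at differed by -0.44 without passing.

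Nr2c1 and Nr2c2 encode the testicular receptors TR2 and TR4, which bind DNA as a pair. Nr2c1 was at 119.8 and 100.3 in Med1-/- cells, against 52.6 and 41.5 in Med1+/+ cells, and Nr2c2 at 11.8 and 27 in Med1-/- cells, against 65.4 and 78.8 in Med1+/+ cells. The first was high and the second low on both Med1-/- arrays. Nr2c1 rose by 1.20 (SE 0.22; adjusted p = 0.00220, limma), and Nr2c2 fell by 1.90 (SE 0.41; adjusted p = 0.00476). The fall of Nr2c2 rested on 1451569_at: its other 3 probe sets were below the filter and differed by 0.25 to 0.60, the opposite direction. The rise of Nr2c1 rested on 1418605_at: its other probe set, 1449157_at, was below the filter and differed by -0.0192. In the values as deposited the change of Nr2c1 was 0.18 and did not pass (adjusted p = 0.791, limma). On the hybridisation controls it was 0.16 and did not pass either (adjusted p = 0.517, limma).

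Esrra, which encodes an orphan receptor that drives mitochondrial genes, was at 296 and 279 in Med1-/- cells, against 128 and 110.4 in Med1+/+ cells. It rose by 1.26 (SE 0.14; adjusted p = 0.000234, limma), a rise that did not pass in the values as deposited (0.32; adjusted p = 0.589, limma). Of 11 tested genes listed as targets of the class, which include Esrra, 5 rose, led by the complex I gene Ndufs7 (1.45), Esrra and the mitochondrial fusion gene Mfn2 (0.90), and 3 fell, led by the fatty acid oxidation gene Acadm (-1.47). The share of these targets that passed was 72.7%, against 75.3% of all features. The NR4A genes are immediate early genes. Nr4a1 had signals of 197 and 186 in Med1-/- cells, against 118 on each of the Med1+/+ arrays. Nr4a2 had 66.2 and 69.2 in Med1-/- cells, against 43.7 and 43.9 in Med1+/+ cells. Both were higher with no overlap. Nr4a1 rose by 0.69 (SE 0.14; adjusted p = 0.00312, limma) and Nr4a2 by 0.61 (SE 0.22; adjusted p = 0.0382). The call of Nr4a2 was lost without any of the 4 arrays in turn (adjusted p = 0.0565 to 0.148, limma), with equal 75th percentiles (0.108) and with no filter (0.101), although its second probe set, 1450749_a_at, rose by 1.11. In the values as deposited the changes were -0.29 for Nr4a1 and -0.41 for Nr4a2.

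**Figure D4:**
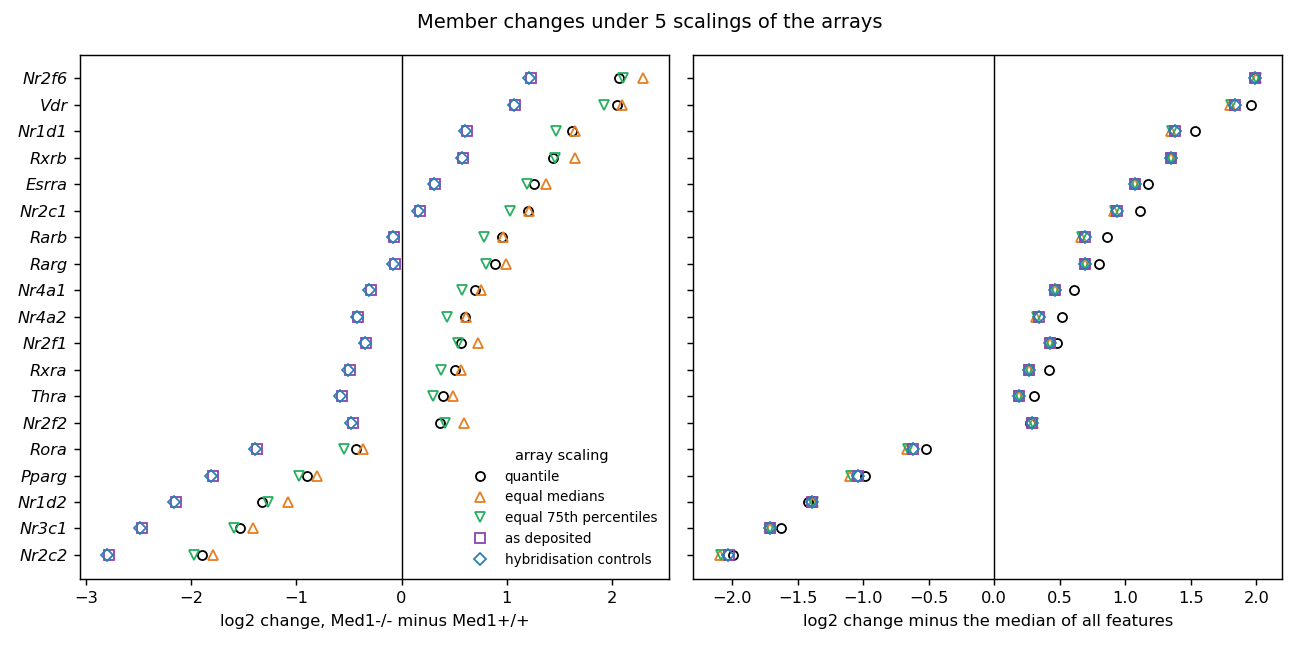
Log2 change, Med1-/- minus Med1+/+, of the 19 tested nuclear receptor genes under 5 scalings of the arrays (left), and the same after subtracting the median change of all features (right). On the left 8 genes lie on either side of 0 depending on the scaling; on the right 14 genes lie above 0 and 5 below it, where 4 of the 5 scalings nearly coincide by construction because subtracting the median removes a constant per array.

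Ratios of related receptor genes within an array need no scaling between arrays, and were taken on the deposited signals for 8 pairs chosen after the values were seen. Their level carries the unequal response of probe sets, so only the difference between genotypes is described, and none was tested. The log2 ratio of Nr1d1 to Nr1d2 was -2.16 and -2.26 on the Med1-/- arrays, against -4.78 and -5.18 on the Med1+/+ arrays, a 6.82-fold shift of the ratio. That of Nr2c1 to Nr2c2 was 2.92 and 1.79 in Med1-/- cells, against -0.30 and -0.91 in Med1+/+ cells. The REV-ERB and testicular receptor pairs had the largest shifts of the 8. The shift of the testicular pair rests on 1 dim Nr2c2 probe set, 1451569_at, deposited at 7.1 and 21.1 in Med1-/- cells. The other Nr2c2 probe sets, below the filter, differed in the opposite direction. The other Nr2c1 probe set, 1449157_at, also below the filter, differed by -0.0192 in the normalized values. Nr1d1, Vdr and Nr2c2 had passed the filter only through the genotype in which they were brighter. The ratio of Nr2f6 to Nr2f2 was 0.37 and 0.82 in Med1-/- cells, against -1.15 and -1.05 in Med1+/+ cells. The ratio of Rxrb to Rxra was 2.04 and 2.06 in Med1-/- cells, against 1.05 and 0.90 in Med1+/+ cells. The ratio of Vdr to Rxra was -0.78 and -0.80 in Med1-/- cells, against -2.57 and -2.14 in Med1+/+ cells. These 5 ratios did not overlap between genotypes. Nor did that of Nr4a1 to Nr4a2, although it shifted by only 0.12 (1.58 and 1.45 in Med1-/- cells, against 1.40 and 1.40). The ratios of Rarb to Rarg and of Nr2f1 to Nr2f2 overlapped. Taken singly, 88.2% of all features did not overlap, and no such share was taken over other pairs of genes.

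**Figure D5:**
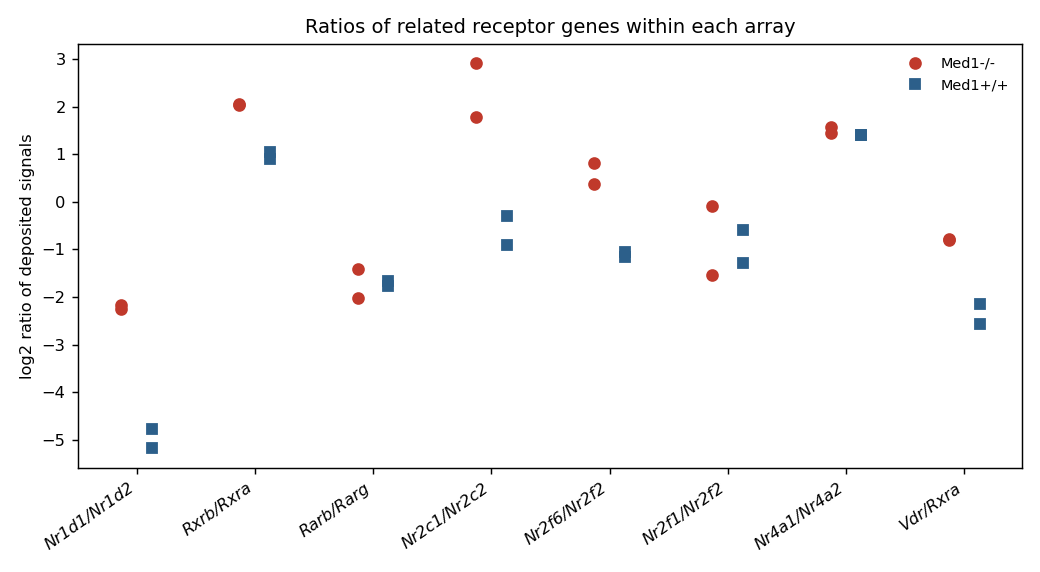
Log2 ratio of the deposited signals of 2 receptor genes on the same array, for 8 pairs; red circles are Med1-/- and blue squares Med1+/+ arrays. The genotypes are farthest apart for Nr2c1 over Nr2c2 and Nr1d1 over Nr1d2, and overlap for Rarb over Rarg and Nr2f1 over Nr2f2. Each gene is shown by its brightest probe set, and the other Nr2c2 probe sets differed in the opposite direction.

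Messages of other proteins that receptors recruit were followed in a pair of lists. Of 11 receptor coactivator genes tested, 5 rose, led by the arginine methyltransferase gene Carm1 (1.46) and Pprc1 (1.38), 3 fell, led by Ncoa4 (-1.04) and Trip4 (-0.98), and 3 did not pass. Of 8 corepressor genes tested, Gps2 (1.32) and Hdac3 (0.50) rose, Tbl1xr1 (-1.62) fell and 5 did not pass. The shares that passed were 72.7% of the coactivator and 37.5% of the corepressor genes, against 75.3% of all features, and these differences were not tested.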

How the data were processed

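Total RNA of 4 mouse fibroblast samples was amplified and biotin-labelled by in vitro transcription for Affymetrix 3' arrays, per the labels' protocols. Each deposited value was a linear intensity for 1 probe set (summarisation and scaling by the authors: not given in the sources used here). Leaving out 64 control probe sets, 22626 were quantile normalized and log2 transformed after adding a pseudocount of 1.7, the 10th percentile of the deposited signals. This understates the fold changes of dim genes. Probe sets were named by the platform annotation, with symbols brought up to RefSeq GRCm38.p6 by Entrez identifier. The 9050 probe sets whose mean log2 value lay below the 40th percentile were removed, and the brightest probe set stood for a gene. The genotypes were compared, Med1-/- minus Med1+/+, with limma 3.58.1 (R 4.3.3; eBayes with intensity trend, two-sided, 2 residual and 4.71 prior degrees of freedom), with Benjamini-Hochberg adjustment over 8923 features at a threshold of 0.05. All 13576 probe sets above the filter were also tested singly. Precision is limited by the number of arrays. Tested members were all named; of each target or cofactor list up to 4 called genes with the largest change could be named; Tsc22d3, Fabp4 and the marker genes were chosen for naming after their values were seen. The members and lists were chosen with earlier results of these data known. The procedure was tested on simulated data. Alternatives varied the filter, scaling, pseudocount, probe set choice, variance model, replicate block, arrays and thresholds. Figures were drawn with matplotlib 3.10.9.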

Additional observations from a re-analysis of the deposited data

How the results depend on the processing

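With 2 arrays per genotype and no known detection calls, neither precision nor absence can be judged further than shown. The counts of 12 receptor genes higher and 3 lower ran from 8 to 12 and from 3 to 4 when each array was left out, and the median log2 change from 0.61 to 0.69; a genotype left with 1 array was assumed to vary like the other. The filter at the 60th percentile, which tests fewer genes, left 7 higher, and a 2-fold minimum left 6 higher. At the 50th percentile 12 members stayed above the filter instead of 19, and at the 30th percentile 28 did. The values as deposited gave 1 higher and 5 lower with a median of -0.33, and scaling on hybridisation controls 3 higher and 8 lower with a median of -0.35; both put the median change of all features below 0. In these 2 settings, in that order, the changes reversed to -0.47 and -0.48 for Nr2f2, -0.29 and -0.31 for Nr4a1, -0.33 and -0.35 for Nr2f1, -0.0652 and -0.0804 for Rarg, -0.41 and -0.43 for Nr4a2, -0.57 and -0.59 for Thra, -0.49 and -0.51 for Rxra, and -0.0670 and -0.0836 for Rarb. On the hybridisation controls the falls of Thra (adjusted p = 0.0123, limma), Rxra (0.0338) and Nr2f2 (0.0369) passed. Nr1d2, Nr2c2, Nr2f6 and Nr3c1 stayed called in the same direction in the 15 settings other than changed thresholds, except that Nr2c2 was not tested with the 60th percentile filter. Nr2c2 and Nr1d2 each had only 1 probe set above the filter, so the settings on probe set choice could not change their values. The Nr2c2 probe set passed the filter only through Med1+/+ cells, and the other Nr2c2 probe sets differed in the opposite direction. The replicate numbers of the labels share nothing stated beyond the number. The correlation of deviations was 0.27, the same for both replicates by construction with 2 arrays per genotype. A replicate block gave 14 higher and 4 lower, adding Nr2f1 and Nr2f2 as higher and Pparg as lower.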

Other observations

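Genes around Med1 moved in both directions, more of them up than down. Among the 40 protein-coding genes on either side of Med1 in the RefSeq order of chromosome 11, 34 were tested, of which 19 were higher, 8 lower and 7 did not pass. These 34 include the receptor genes Thra and Nr1d1, both called higher. The share of calls among the 34 was 79.4%, against 75.3% of all features (39.1% higher, 36.2% lower). Their median log2 change was 0.52, against 0.09. The nearest tested neighbour on one side, Fbxl20, changed by -1.61, and on the other Cdk12 by -0.35 without passing; both were looked up after the receptor values were seen.

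Below the filter, differences of the 23 receptor genes ran from -1.79 for Rorb to 1.94 for Nr1h4 on the log2 scale. At these low signals they were not tested, and no common direction is read from them. Nr1h4, the bile acid receptor gene, had 23.9 and 21.6 in Med1-/- cells, against 2.58 and 7.78 in Med1+/+ cells.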
